A study of Mus musculus with 16 samples.

Results

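The laminin chain genes Lama1, Lama2, Lama3, Lama4, Lama5, Lamb1, Lamb2, Lamb3 and Lamc1 were followed across 16 immortalised mouse embryonic fibroblast (MEF) lines. These 9 genes, of 54453 in the expression table, were chosen by symbol as the members of one gene family, matched to their Ensembl identifiers in the mm10 annotation, and all 9 were found. They were chosen because Lama2 was known to be among the genes that differ most between the 2 sets of lines, so levels between the sets are given below as a description, without a test. Lamc3, a laminin chain gene outside this choice, was compared with them.

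MEF-1 and MEF-2 are the fibroblasts of a pair of sibling C57BL/6J embryos at E13.5, immortalised by passaging through crisis, and per the study MEF-1 is male and MEF-2 female. The labels name no transgene, deletion or treatment for any line. Each set had 1 parental line, the mixed population, and 7 clonal lines, each grown from a single sorted cell and sequenced as 1 library, so that a clonal line is 1 clone and all clones of a set descend from 1 embryo. Total RNA was depleted of ribosomal RNA and sequenced with strand information, and the values are regularised log2 (rlog) read counts, in which low counts are pulled towards the average of the gene. All differences are in these log2 units, and folds computed from them are smaller than the folds of unshrunken counts would be.

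Laminins are secreted heterotrimers of an α, a β and a γ chain that assemble into a sheet and give the basement membrane its scaffold. The carboxy-terminal globular domains of the α chain bind integrins and dystroglycan at the cell surface, and nidogen joins the γ chain to the collagen IV network. Fibroblasts are known to supply basement membrane chains to neighbouring epithelium and muscle. The Lama genes encode α chains, the Lamb genes β chains and the Lamc genes γ chains, and a trimer needs a chain of each kind before it is secreted.

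Start-site windows were printed for Lama2, for Lama5 and Lamb1, whose relation between MEF-2 clones passed its test, and for Lamb2, the β chain that can take the place of Lamb1, because they show how unlike the CpG content around these starts is. RefSeq windows of 300 bases on GRCm38.p6, reaching from 250 bases before to 50 bases after a start and written on the strand of the gene, were found for 5 of 9 members. The windows shown are chr10:27616893-27617192 on the minus strand for Lama2, chr2:180225810-180226109 on the minus strand for Lama5, chr12:31265043-31265342 on the plus strand for Lamb1 and chr9:108479612-108479911 on the plus strand for Lamb2, with each CpG dinucleotide in capitals.
Lama2: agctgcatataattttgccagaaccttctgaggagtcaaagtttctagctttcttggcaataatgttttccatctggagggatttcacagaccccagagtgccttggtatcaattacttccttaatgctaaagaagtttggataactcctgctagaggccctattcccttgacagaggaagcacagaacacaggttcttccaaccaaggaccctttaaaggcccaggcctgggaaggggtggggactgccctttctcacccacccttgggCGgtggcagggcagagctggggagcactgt
Lama5: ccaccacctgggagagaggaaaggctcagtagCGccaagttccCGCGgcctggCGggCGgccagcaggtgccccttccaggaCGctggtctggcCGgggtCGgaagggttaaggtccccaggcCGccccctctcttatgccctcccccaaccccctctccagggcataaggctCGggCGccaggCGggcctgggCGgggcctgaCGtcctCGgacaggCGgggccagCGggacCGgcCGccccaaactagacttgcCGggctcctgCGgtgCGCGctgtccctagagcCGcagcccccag
Lamb1: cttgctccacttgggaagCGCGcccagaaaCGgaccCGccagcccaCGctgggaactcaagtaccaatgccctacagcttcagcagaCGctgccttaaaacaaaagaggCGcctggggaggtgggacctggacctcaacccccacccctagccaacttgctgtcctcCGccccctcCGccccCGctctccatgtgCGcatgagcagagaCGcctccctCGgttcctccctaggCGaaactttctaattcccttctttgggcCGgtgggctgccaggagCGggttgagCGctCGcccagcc
Lamb2: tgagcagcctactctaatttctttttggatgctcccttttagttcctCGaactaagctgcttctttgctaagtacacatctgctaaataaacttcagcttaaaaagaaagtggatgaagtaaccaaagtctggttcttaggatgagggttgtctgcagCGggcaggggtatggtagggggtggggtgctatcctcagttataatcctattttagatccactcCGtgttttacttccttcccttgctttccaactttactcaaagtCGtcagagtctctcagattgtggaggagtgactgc
The Lama2 window held 1 CpG, which placed it at percentile 5.4 of the 32851 windows of the same length, whose median was 7 CpGs with quartiles of 3 and 20. The RefSeq start used for Lama2, 27616942, lies inside the annotated gene, whose upstream end is at 27619758. Its window therefore leaves that end out and does not describe the CpG content there. The windows of Lama5, Lamb1 and Lamb2 hold the annotated upstream end of the gene. The Lamb2 window held 4 CpGs (percentile 31.4), the Lamb1 window 18 (percentile 70.3) and the Lama5 window 24 (percentile 80.0). Lamb3 had 2 RefSeq starts, with 2 and 5 CpGs in their windows. Both, at 193301994 and 193302243, lie inside the annotated gene, which begins at 193207699. The GC box GGGCGG, searched on both strands (CCGCCC on the other), occurred 4 times around Lama5, 2 times around Lamb1, 1 time around Lama2 and not around Lamb2 or Lamb3, against 35.7% of all windows that held it at least once. The letters TATAAA, searched on both strands, were in no window of these members and in 13.6% of all windows. These matches describe the letters in the windows only.

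All 9 chains passed the filter used for the fits, an average rlog value above 0 over the 16 lines, which kept 15285 protein-coding genes. Across these genes 56.1% differed between the 7 MEF-2 and the 7 MEF-1 clonal lines (limma on rlog values, Benjamini-Hochberg adjusted p under 0.05), 27.5% higher and 28.6% lower in MEF-2. The laminin chains were chosen on this contrast and are not tested in it. By their means Lama2, Lama5 and, unless chromosome medians are taken away, Lamb1 were higher in MEF-2, and the other 6 were lower. Clonal lines of the sets did not overlap for 4 of 9 chains (Lama1, Lama2, Lamb2 and Lamb3), and for 25.9% of all genes tested. The median absolute difference of the members was 0.98, that of all genes 0.3. The sets differ in embryo and sex, and in the dosage of some chromosomes, and these cannot be told apart in the comparison of MEF-2 with MEF-1.

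**Figure D1:**
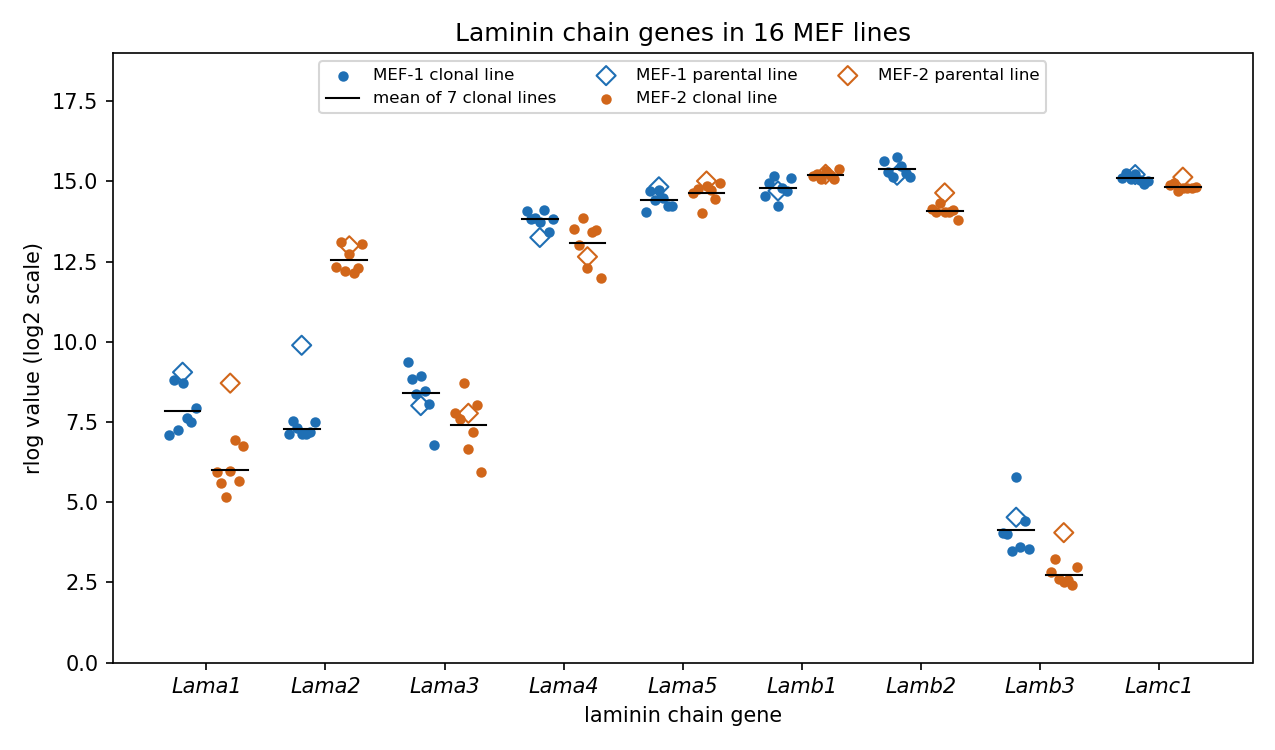
rlog values (log2 scale) of the 9 laminin chain genes, with MEF-1 in blue and MEF-2 in orange, 1 filled point for each clonal line, a bar at the mean of the 7 clonal lines and an open diamond for the parental line. Lama2 lies between 7.13 and 7.53 among MEF-1 clones, at 9.89 in the MEF-1 parental line and between 12.14 and 13.10 among MEF-2 clones.

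Among the α chains, Lama2 separated the sets. It encodes the α2 chain, known for its place in the basement membrane of skeletal muscle and Schwann cells and for the congenital muscular dystrophy caused by its loss. Lama2 (ENSMUSG00000019899, chromosome 10, 26980036 to 27619758, minus strand, 65 exons in the longest coding transcript) ranged from 7.13 through a median of 7.19 to 7.53 across the 7 clones of MEF-1. Across those of MEF-2 it ranged from 12.14 through a median of 12.33 to 13.10. Every MEF-2 line thus lay far above every MEF-1 clonal line. Means were 7.27 ± 0.17 and 12.55 ± 0.40 (SD, n = 7 each), a difference of 5.28 (SE 0.16) or 38.8-fold on the rlog scale. This placed Lama2 at rank 3 among the genes higher in MEF-2 and at rank 19 by absolute difference of the 15285 genes.

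The parental lines did not show the same gap. Lama2 stood at 9.89 in the MEF-1 parental line and at 12.99 in the MEF-2 parental line, a difference of 3.09. All 7 MEF-1 clonal lines lay below their own parental line, by 2.62 on average, whereas 5 of 7 MEF-2 clonal lines lay below theirs and the average there was -0.43. The values of the MEF-1 clonal lines were close to the lowest that the transform gave for genes of this average. Of 1768 genes whose average lay within 0.5 of that of Lama2, 13 had a line below the lowest Lama2 value, and the lowest value among them was 6.36. Whether Lama2 had any reads in these clones therefore cannot be told from rlog values. The genes overlapping Lama2 in the annotation had averages of 2.42 or less.

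Lama1, the α chain of the earliest embryonic basement membranes, was low in all lines and differed from Lama2 in direction, being lower in MEF-2. Lama1 (ENSMUSG00000032796, chromosome 17, 67697259 to 67822647, plus strand, 63 exons) ranged from 7.09 through 7.63 to 8.81 in MEF-1 clonal lines and from 5.15 through 5.95 to 6.94 in MEF-2 clonal lines. The highest MEF-2 clone was below the lowest MEF-1 clone. Means of 7.85 ± 0.68 and 6.00 ± 0.64 (SD, n = 7 each) gave a difference of -1.84 (SE 0.33). The spread between clones of 1 set was wide, with SDs at percentiles 93.4 and 93.8 of all genes tested. The lowest MEF-1 value, 7.09 in clonal line 1, came from the line in which the median gene of chromosome 17 was at -0.227 relative to the autosomes (each gene taken relative to its mean over the lines), and its part in the spread was not tested.

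Lama3, which shares a trimer with Lamb3 in epithelial hemidesmosomes, was the most variable α chain. It (ENSMUSG00000024421, chromosome 18, plus strand) ranged from 6.77 through 8.47 to 9.37 in MEF-1 clonal lines and from 5.93 through 7.60 to 8.71 in MEF-2 clonal lines, with SDs of 0.84 and 0.92 at percentiles 96.5 and 97.6. The sets overlapped over much of this range, and the means differed by -0.98 (SE 0.43). In MEF-1 clonal lines 1, 4 and 5 the median gene of chromosome 18 lay at -0.469, -0.500 and -0.465. Lama3 in these lines was 9.37, 8.93 and 8.47, at or above the median of the set, and its lowest value was in clonal line 7. The parental lines were at 8.01 and 7.77.

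Lama4 and Lama5 were the abundant α chains in both sets. Lama4, whose product lacks the amino-terminal domain needed for polymerisation and is found around vessels and in mesenchyme, lies on chromosome 10 (ENSMUSG00000019846, 38965515 to 39110188, plus strand, 38 exons). It ranged from 13.41 through 13.84 to 14.10 in MEF-1 clonal lines. In MEF-2 clonal lines it spread from 12.00 through 13.41 to 13.87, which overlapped the MEF-1 range. The means were 13.84 ± 0.23 and 13.08 ± 0.69 (SD, n = 7 each), a difference of -0.75 (SE 0.25), and the SD within MEF-2 was at percentile 94.7 of all genes. MEF-2 clonal lines 4 and 7, at 12.31 and 12.00, were the lowest, and the parental lines were at 13.25 and 12.65.

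Lama5 encodes the largest α chain, widespread in epithelial and vascular basement membranes. Lama5 (ENSMUSG00000015647, chromosome 2, 180176373 to 180225859, minus strand, 79 exons) ranged from 14.05 through 14.42 to 14.73 in MEF-1 clonal lines and from 14.02 through 14.74 to 14.96 in MEF-2 clonal lines. The sets overlapped almost entirely, with a difference of 0.22 (SE 0.14) between means of 14.41 ± 0.25 and 14.63 ± 0.31 (SD, n = 7 each). Its lowest value in MEF-2, 14.02 in clonal line 3, came with a chromosome 2 median of -0.253 in that line, and the part of that chromosome in the value was not tested.

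Of the β chains, Lamb1 and Lamb2, which replace each other in otherwise like trimers, differed in opposite directions, although that of Lamb1 turned with chromosome medians taken away. Lamb2 (ENSMUSG00000052911, chromosome 9, 108479736 to 108490530, plus strand, 33 exons), the β chain of the neuromuscular synapse and the kidney filter, ranged from 15.12 through 15.30 to 15.76 in MEF-1 clonal lines. It ranged from 13.80 through 14.04 to 14.34 in MEF-2 clonal lines, so that the sets stood apart without overlap. The difference was -1.31 (SE 0.10), 2.48-fold lower in MEF-2 on the rlog scale. In the parental lines it was 15.19 and 14.64.

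Lamb1, the β chain of most embryonic laminins, differed little. Lamb1 (ENSMUSG00000002900, chromosome 12, 31265234 to 31329644, plus strand, 33 exons) ranged from 14.24 through 14.79 to 15.16 in MEF-1 clonal lines and from 15.07 through 15.20 to 15.37 in MEF-2 clonal lines. The means of 14.78 ± 0.33 and 15.20 ± 0.12 (SD, n = 7 each) differed by 0.42 (SE 0.12). The parental lines were at 14.70 and 15.22. The median gene of chromosome 12 was at -0.345 to -0.279 in MEF-1 clones and at 0.292 to 0.334 in MEF-2 clones. In the parental lines it was at -0.066 in MEF-1 and at 0.263 in MEF-2. With the chromosome median of each clonal line taken away, the Lamb1 difference between the clonal sets became -0.22. The parental lines were not adjusted in this way.

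Lamb3, the β chain of the epithelial trimer, was the lowest member. Lamb3 (ENSMUSG00000026639, chromosome 1, 193207699 to 193343878, plus strand, 27 exons) ranged from 3.47 through 4.00 to 5.80 in MEF-1 clonal lines and from 2.43 through 2.59 to 3.24 in MEF-2 clonal lines. The sets did not overlap, with a difference of -1.39 (SE 0.30) between means of 4.12 ± 0.81 and 2.73 ± 0.29 (SD, n = 7 each). It overlaps Hsd11b1 and G0s2, genes on the opposite strand with averages of 1.59 and 2.90.

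Lamc1, the γ chain of most laminins, was the steadiest member. Lamc1 (ENSMUSG00000026478, chromosome 1, 153218922 to 153332786, minus strand, 28 exons) ranged from 14.93 through 15.07 to 15.25 in MEF-1 clonal lines and from 14.71 through 14.80 to 14.95 in MEF-2 clonal lines. Its SDs of 0.12 and 0.08 were at percentiles 20.2 and 15.2 of all genes, and the means differed by -0.26 (SE 0.06). Outside the chosen genes, the γ chain gene Lamc3 was higher in MEF-2 by 2.15 (SE 0.22, limma adjusted p = 1.18e-06), from 3.65 ± 0.21 to 5.80 ± 0.56 (SD, n = 7 each), with no overlap.

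Levels of different chains were compared per kilobase of the longest coding transcript, as the rlog value minus log2 of the length, which is approximate because shrinkage differs between genes. In MEF-1 clonal lines the order of the members was Lamb2 at 12.89, Lamb1 at 12.25, Lamc1 at 12.16, Lama4 at 11.24, Lama5 at 10.90, Lama3 at 5.00, Lama1 at 4.60, Lama2 at 4.01 and Lamb3 at 1.84 (log2 per kb). Neighbours in that order overlapped between clonal lines except at the steps from Lamc1 to Lama4 and from Lama2 to Lamb3, and at the wide gap below Lama5. Lama2 values of MEF-1 clones were close to the lowest that the transform gave for genes of its average. Its place in the MEF-1 order, and its step above Lamb3, therefore cannot be read as a level. In MEF-2 clonal lines Lamb1 led at 12.67, followed by Lamc1 at 11.90, Lamb2 at 11.58, Lama5 at 11.12, Lama4 at 10.49, Lama2 at 9.29, Lama3 at 4.02, Lama1 at 2.75 and Lamb3 at 0.45. Here Lamb1 did not overlap Lamc1, nor Lama1 Lamb3, and Lama2 stood with the abundant α chains, overlapping Lama4 and clear of Lama3. The chains Lama4, Lama5, Lamb1, Lamb2 and Lamc1 were thus the abundant ones in both sets, and Lama2 joined them in MEF-2.

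The clonal lines were next compared with the mixed populations they were grown from, a contrast that did not enter the choice of the genes. With the set as a covariate, 0.203% of the 15285 genes differed between the 14 clonal and the 2 parental lines (limma, adjusted p under 0.05), 0.072% higher and 0.131% lower in clonal lines. None of the 9 chains did (0 of 9). At an unadjusted p under 0.05 there were 3 of 9, Lama1, Lama2 and Lamc1, all lower in clonal lines, against 18.1% of all genes. Of the 9, 6 were lower in clonal lines on average, against 48.7% of all genes, and the median difference was -0.21 against 0.01.

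Lama1 was below the parental line in all 14 clonal lines. The parental lines were at 9.05 in MEF-1 and 8.71 in MEF-2, and the clonal means lay at -1.20 and -2.70 relative to them. The fitted difference was -1.95 (SE 0.49, limma unadjusted p = 0.001, adjusted p = 0.0912, range 0.0616 to 0.356 over the alternatives). For Lama2 the fitted difference was -1.53 (SE 0.35, limma unadjusted p = 0.000461, adjusted p = 0.0765). This value joined unlike sets. Without the MEF-1 parental line it was -0.43, and without the MEF-2 parental line it was -2.62, so each parental library decided it. In either case the difference came from the clonal and parental lines of 1 set alone. Among clonal lines left out singly, only MEF-2 clonal line 7 moved the limma adjusted p below 0.05, to 0.0425, at a difference of -1.58.

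Lamc1 was lower by 0.12 in MEF-1 and by 0.31 in MEF-2, where all 7 clones lay below the parental value of 15.13, with a fitted difference of -0.21 (SE 0.08, limma adjusted p = 0.2). Lama5 was likewise below the parental line in every clone, with parental values of 14.83 and 15.01 and a fitted difference of -0.40 (SE 0.19, limma adjusted p = 0.284). Lama4 went the other way, above the parental line in 7 of 7 MEF-1 and 5 of 7 MEF-2 clonal lines, at 0.51 (SE 0.34, limma adjusted p = 0.431). For Lamb3 the difference was -0.87 (SE 0.43, limma adjusted p = 0.302), with 6 of 7 MEF-1 and 7 of 7 MEF-2 clones below the parental values of 4.53 and 4.05. Lama3, Lamb1 and Lamb2 had fitted differences of 0.02, 0.03 and -0.19, whose sign changed when single libraries were left out.

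**Figure D2:**
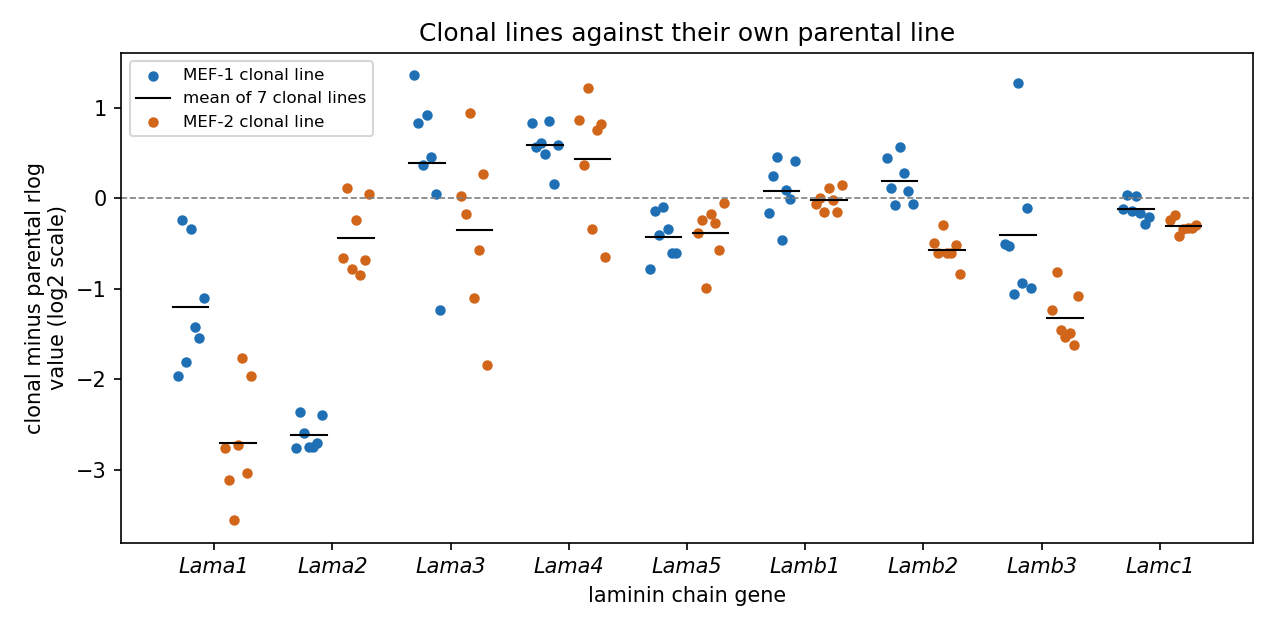
Each clonal line minus the parental line of its own set (rlog, log2 scale) for the 9 laminin chain genes, MEF-1 in blue and MEF-2 in orange, with bars at the means of 7 clonal lines and a dashed line at no difference. Lama1 lies below the line in every clone, and Lama2 is 2.62 below it on average in MEF-1 but 0.43 below it in MEF-2.

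Whether the step from parental to clonal lines differed between the sets was fitted as an interaction, in which 0.275% of all genes passed (limma). The interaction holds the contrast between the sets on which the chains were chosen, so their values in it are a description. For Lama2 it was 2.19 (SE 0.44). For Lamb2 the clonal lines were 0.19 above the parental line in MEF-1 and 0.56 below it in MEF-2, where all 7 clones lay below. Each parental line is 1 library, taken to vary like the clonal lines.

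Chains that can share a trimer were then compared between clones within each set, where the difference between the sets plays no part. Of 16 relations, 8 pairs in each set, 2 passed after Benjamini-Hochberg adjustment, both in MEF-2 and both with Lamb1. With 1 of MEF-2 clonal lines 1, 2, 4, 5 or 7 left out, 0 passed. Lamb1 was lower in the clones with more Lama4, with the highest Lamb1 values, 15.37 and 15.33, in clonal lines 7 and 4, which had the least Lama4. Over the 7 MEF-2 clonal lines Pearson's r was -0.949 (exact permutation p = 0.00119, two-sided, adjusted p = 0.019) and Spearman's rho was -0.893 (exact permutation p = 0.0123, adjusted p = 0.0984), and r was -0.778 without the 2 lines farthest from the median. Lamb1 was higher in the clones with more Lama5, with r of 0.862 (exact permutation p = 0.00575, adjusted p = 0.046) and rho of 0.964 (exact permutation p = 0.00278, adjusted p = 0.0444), and r was 0.953 without the 2 farthest lines. In MEF-1 the same pairs had r of 0.0885 (exact permutation p = 0.842) and -0.158 (exact permutation p = 0.731). The difference between the sets in these relations was not tested. Relations of this size were not limited to the chosen pairs. Among all 72 relations, examined after seeing the data, Lama3 in MEF-2 had r of -0.948 with Lamb1 and 0.932 with Lama4 (exact permutation, adjusted p = 0.0357 for both). Adjusted over those 72, Lama5 with Lamb1 did not pass (exact permutation, adjusted p = 0.0518).

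The 2 relations that passed among the chosen pairs rested on a narrow range, since Lamb1 spanned 15.07 to 15.37 in MEF-2. After quantile normalisation of the lines r was -0.706 for Lama4 (adjusted p = 0.422) and 0.594 for Lama5 (adjusted p = 0.563), by exact permutation, and neither passed. With the chromosome medians taken away r was -0.908 (adjusted p = 0.0619) and 0.941 (adjusted p = 0.0317), by exact permutation. Lama2, the chain behind the choice of the family, had r of 0.710 and 0.726 with Lamb1 in MEF-1 and MEF-2 (exact permutation p = 0.0819 and 0.0821, adjusted p = 0.263 for both), and no relation with Lamc1 passed in either set. Lamb1 and Lamc1, the pair common to many laminins, had r of -0.312 in MEF-1 and 0.275 in MEF-2 (exact permutation p = 0.497 and 0.551).

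**Figure D3:**
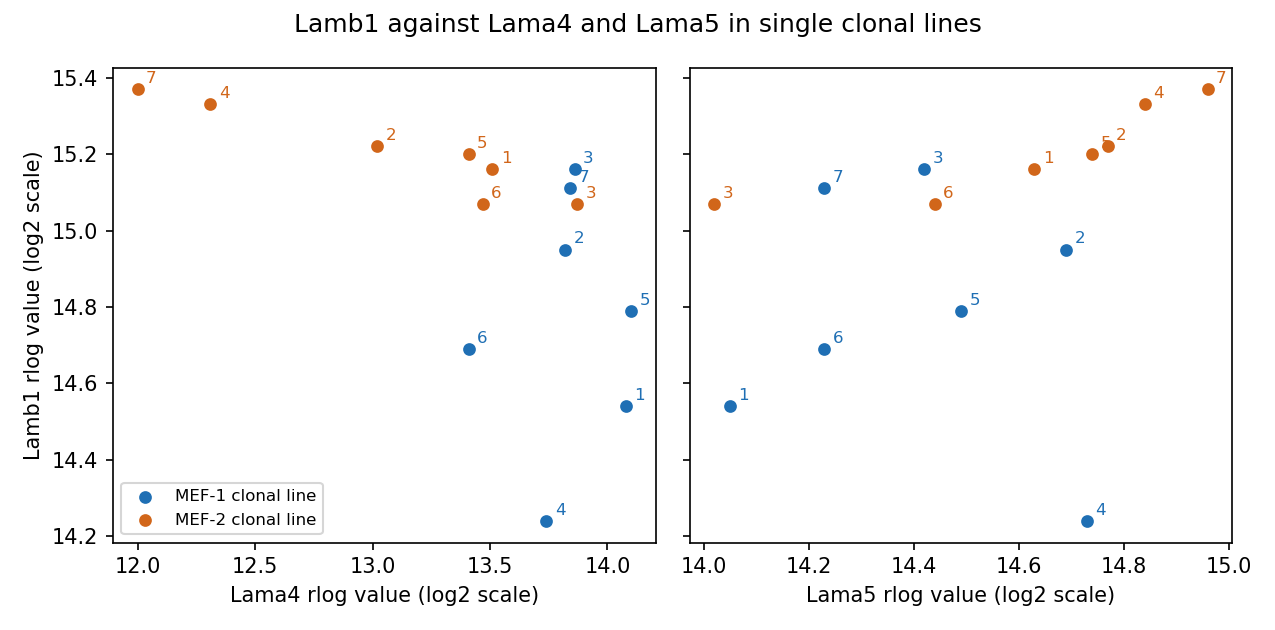
Lamb1 against Lama4 and against Lama5 (rlog values, log2 scale) in the 7 clonal lines of MEF-1 (blue) and of MEF-2 (orange), each point marked with its clone number. In MEF-2, clonal lines 7 and 4 have the highest Lamb1, the lowest Lama4 and the highest Lama5, and no such order is seen in MEF-1.

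The genes whose pattern over clones was most like that of Lama2 were found among 13122 protein-coding genes with averages above the 40th percentile, after the mean of each set was taken away. They were Txndc17 (chromosome 11, r = 0.926, rho = 0.851), Sept5 (chromosome 16, r = 0.926, rho = 0.925) and Ttc9 (chromosome 12, r = 0.924, rho = 0.912), each over 14 clonal lines. These are the highest of all the values computed, and the lines share their libraries. Txndc17 ranged only from 11.09 to 11.69 over the clones of both sets, and Ttc9 from 8.43 to 10.14 in MEF-2, where Lama2 also varied more. Within MEF-1 clones r was 0.856 for Txndc17, 0.912 for Sept5 and 0.646 for Ttc9. Within MEF-2 clones it was 0.940, 0.931 and 0.975. In MEF-1 clones Lama2 spanned only 7.13 to 7.53, close to the lowest values of the transform, so r there cannot be read as shared variation in level.

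The receptors and partners of laminins were taken from fixed lists and tested between the clonal sets. Of 9 laminin receptor genes, 2 were higher in MEF-2, 2 were lower and 5 did not pass, where 56.1% of all genes passed. The median difference was 0.15 against 0 for all genes. Itga6, the α6 integrin that binds laminins at hemidesmosomes and elsewhere, was lower by 1.57 (SE 0.18, limma adjusted p = 4.08e-06), with values of 6.97 to 8.24 in MEF-1 clones and 5.74 to 6.43 in MEF-2 clones. The parental lines hardly differed in Itga6, at 7.53 in MEF-1 and 7.36 in MEF-2. Bcam, the Lutheran receptor for the α5 chain, was higher by 1.04 (SE 0.27, limma adjusted p = 0.00395). Itgb1, the β subunit shared by the laminin integrins, was higher by 0.30 (SE 0.12, limma adjusted p = 0.0444), a call that was lost under 13 of 22 alternatives (adjusted p of 0.0173 to 0.0891).

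The main receptors of the α2 chain did not pass. Itga7, the integrin subunit of muscle, was at 11.37 ± 0.96 and 10.64 ± 0.29 (SD, n = 7 each), a difference of -0.73 (SE 0.34, limma adjusted p = 0.083) that passed in 4 of 22 alternatives. Dag1, which encodes dystroglycan, was at 15.52 ± 0.09 and 15.67 ± 0.15 (SD, n = 7 each), a difference of 0.15 (SE 0.07, limma adjusted p = 0.0863) that passed in 3 of 22.

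Of 16 basement membrane partners 6 were higher in MEF-2, 2 lower and 8 did not pass, again near the 56.1% of all genes that passed, with a median difference of 0.30. The collagen IV genes split. Col4a3 and Col4a4, neighbours that encode chains of 1 network, were higher by 2.55 (SE 0.48, limma adjusted p = 0.000382) and 2.34 (SE 0.39, limma adjusted p = 0.000151). Col4a6, on the X chromosome, was lower by 3.72 (SE 0.35, limma adjusted p = 5.88e-07), and Col4a1, Col4a2 and Col4a5 did not pass. The parental lines did not show the same gap in Col4a6. It was at 9.34 in MEF-1 and 8.38 in MEF-2, above the 4.28 to 5.49 of MEF-2 clones. Parental values in MEF-1 and MEF-2 were 8.76 and 11.15 for Col4a3 and 9.54 and 11.82 for Col4a4. Col18a1, the source of endostatin, was higher by 2.23 (SE 0.31, limma adjusted p = 2.81e-05). Agrn, the heparan sulphate proteoglycan agrin, was higher by 1.17 (SE 0.10, limma adjusted p = 3.04e-07), without overlap between 14.28 to 15.07 in MEF-1 and 15.72 to 15.91 in MEF-2. The nidogens, which bind the laminin γ chain, moved apart, with Nid1 higher by 0.98 (SE 0.18, limma adjusted p = 0.000279) and Nid2 lower by 0.48 (SE 0.16, limma adjusted p = 0.017). Hspg2, which encodes perlecan, was at 17.54 ± 0.16 and 17.66 ± 0.17 (SD, n = 7 each; limma adjusted p = 0.348).

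Inside the cell, dystroglycan binds dystrophin or utrophin. Of 12 tested genes of that complex 3 were higher, 4 lower and 5 did not pass, also near the 56.1% of all genes. Sntb1, a syntrophin, was higher by 2.28 (SE 0.22, limma adjusted p = 7.13e-07) and was the only gene of the complex past a difference of 1. The 12 genes whose products build the laminin-binding glycan of dystroglycan were all tested, and 6 were higher, 5 lower and 1 did not pass (56.1% of all genes passed). With chromosome medians taken away, 3 were higher and 5 lower. The difference of Pomt2, on chromosome 12, ran from -0.33 to 0.34 over the alternatives. Pomgnt2, which extends the O-mannose core, was lower by 1.18 (SE 0.13, limma adjusted p = 3.87e-06), and the other 11 differed by less than 1. None of the genes in these lists passed between clonal and parental lines (0 of 51 tested, limma, where 0.203% of all genes passed), and 10 of 51 had an unadjusted p under 0.05, where 18.1% of all genes did.

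**Figure D4:**
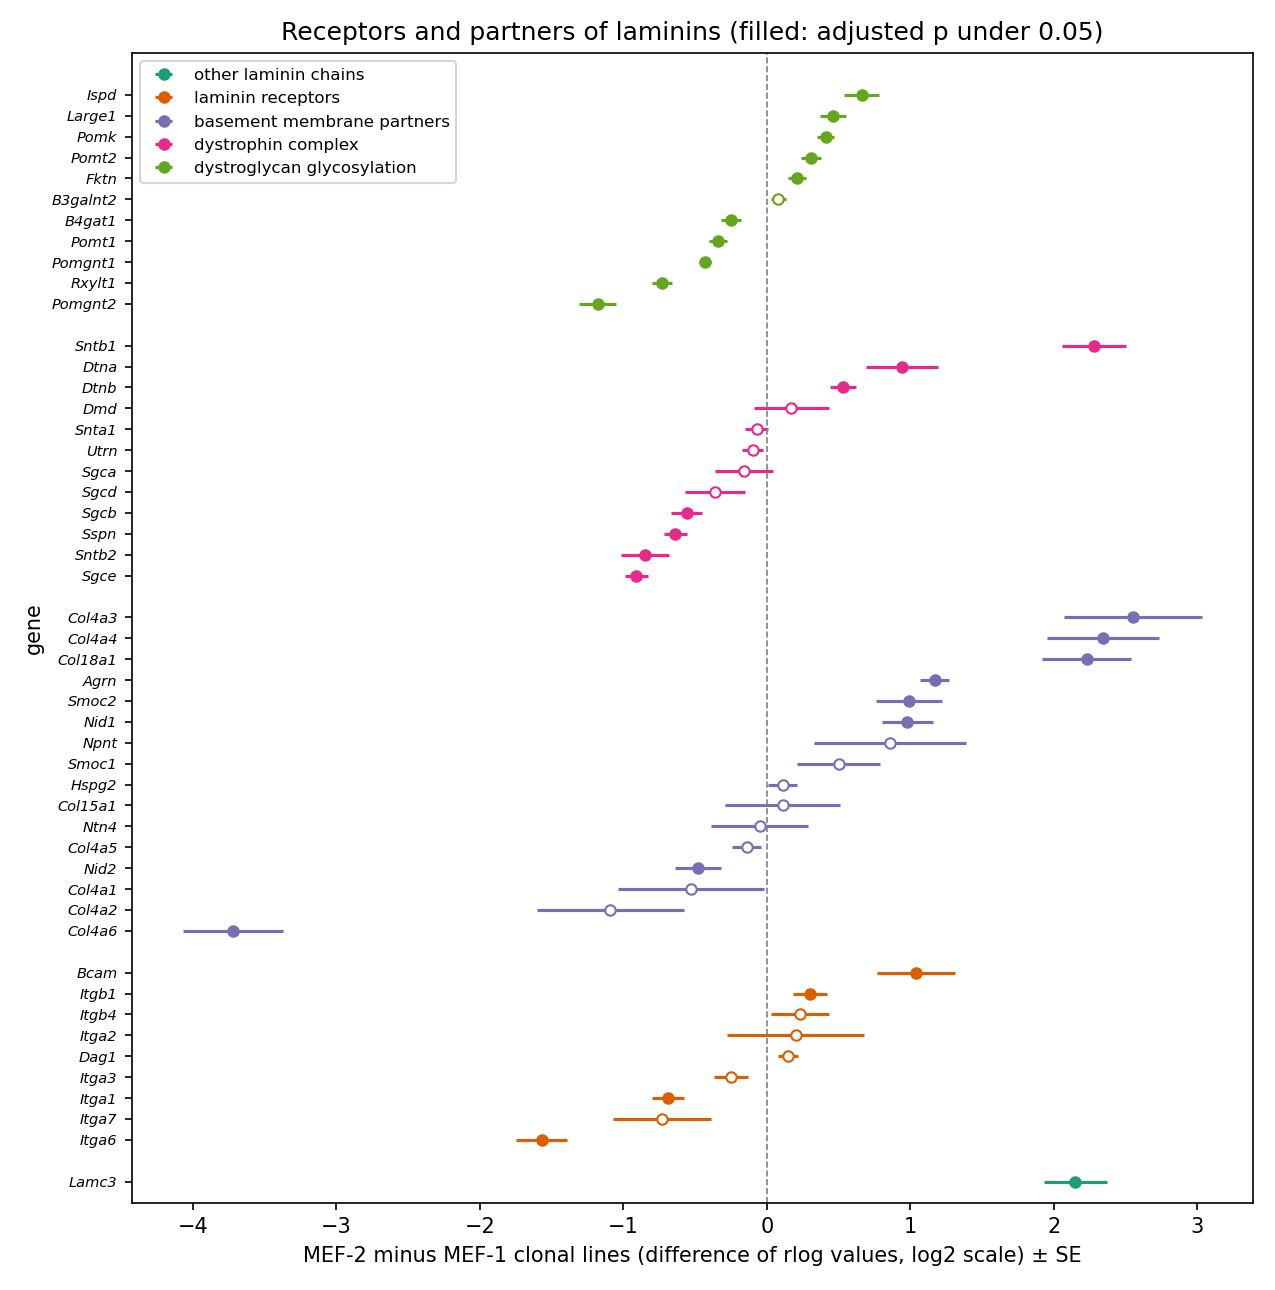
Difference between the 7 MEF-2 and the 7 MEF-1 clonal lines (rlog, log2 scale) for tested genes of the laminin receptor, basement membrane, dystrophin complex and dystroglycan glycosylation lists and for Lamc3, with bars of 1 SE and filled points for adjusted p under 0.05. Col4a6 at -3.72 and Col4a3 at 2.55 are the outermost genes, and the glycosylation genes lie within 1.18 of no difference.

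The lines were checked against marker genes. Among fibroblast markers Col1a1 was high, at 21.04 ± 0.27 and 20.74 ± 0.28 in MEF-1 and MEF-2 clonal lines (SD, n = 7 each). Thy1 was at 2.95 ± 0.23 and 5.54 ± 1.92, Dcn at 11.02 ± 0.92 and 6.29 ± 0.47, and Lum at 10.48 ± 1.05 and 6.80 ± 1.15 (SD, n = 7 each). The parental lines of MEF-1 and MEF-2 had Thy1 at 6.12 and 10.22, above every clone of their set. They had Dcn at 8.07 and 6.21 and Lum at 7.94 and 5.51. Of the list, 4 of 10 were lower in MEF-2 (Dcn, Lum, Pdgfra and Col3a1), and 1, Thy1, was higher. Of all genes 28.6% were lower and 27.5% higher. The mean level of the list was 14.96 to 15.54 in MEF-1 and 14.16 to 15.00 in MEF-2 clonal lines. For the cells in which Lama2 is best known, the muscle markers Myod1, Myog, Myf5, Pax7 and Ckm averaged 0 or less, as did Sox10 and Cdh19 of Schwann cells, whereas the muscle marker Des averaged 3.44. Of 4 pericyte markers 3 were higher in MEF-2, where 27.5% of all genes were. These were Rgs5, Kcnj8 and Abcc9, by 1.20, 1.73 and 1.46. The calls of Rgs5 and Abcc9 were lost under 4 and 6 of 22 alternatives. Cspg4, with the highest average of the 4 (13.23), differed by 0.16 and did not pass (limma adjusted p = 0.588). The mean level of the list was 6.45 to 7.77 in MEF-1 and 6.87 to 9.32 in MEF-2 clonal lines. The part of the pericyte markers in the laminin differences was not tested. Krt5 and Krt14, the keratins of the cells that make the epithelial trimer, were below 0 on average. Cdh1, however, averaged 7.44, Epcam 3.15, Krt18 0.70 and Krt8 0.30. Of 4 tested epithelial markers 0 differed, where 56.1% of all genes did. Csf1r was higher in MEF-2 by 1.36, the only one of 3 tested macrophage markers to pass, where 56.1% of all genes passed. It averaged 6.23, Cd68 5.03 and Ptprc 2.08, and Adgre1 was below 0. Of 4 endothelial markers 1 (Kdr, by -0.89) passed, again beside 56.1% of all genes. In bulk RNA, fewer cells with a transcript and less transcript per cell cannot be told apart.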

How the data were processed

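Total RNA of 16 immortalised mouse embryonic fibroblast lines was sequenced with paired ends. Per the paper and the submitters' processing notes, the authors trimmed reads with Trim Galore 0.6.0, quantified them with Salmon 1.5.2 against mm10 (Ensembl) and transformed gene values with rlog in DESeq2 1.24.0. How transcripts were summed to genes is not given in the sources used here. The deposited values are log2 (rlog), relative to all 16 libraries, with low counts shrunken by the authors. No counts were used, so depth per library is unknown and its precision cannot be given.

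Of 54453 gene identifiers 54200 matched the mm10 annotation (GENCODE vM21), of which 21872 were protein coding and 15285 had an average above 0. These were fitted with limma 3.58.1 (R 4.3.3, trended variance prior, Benjamini-Hochberg threshold 0.05) for MEF-2 against MEF-1 clonal lines, clonal against parental lines with set as a covariate, and their interaction. The planned count tests were replaced by the log2 fit foreseen for such values. Groups came from the sample labels. Replicates are separate lines grown from single cells, and p-values measure the spread between them. Pairs of chains were tested by exact permutation (scipy 1.17.1), two-sided. Named genes were all 9 members, every called gene of the pathway lists with a difference of at least 1, the receptors Itga6, Itgb1, Itga7 and Dag1, the partners Nid1, Nid2 and Hspg2, and the 3 genes most like Lama2; others are named where a small count needed it. Some genes of the lists are not reported here. The members and lists were chosen with earlier results of these data known. Chromosome medians are of genes relative to their mean over the lines, less the same median over the autosomes. On simulated data with 200 of 15285 genes shifted by 2, the fit recovered 192 in the comparison of the sets, 181 between clonal and parental lines and 142 in the interaction, with 14, 10 and 4 false calls. The labels state no pairing of lines between the sets by clone number, and correlations of deviations between same-numbered lines were -0.133 to 0.2. Alternatives covered filters, the variance prior, scaling, chromosome dosage, parental lines and each line left out.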

Additional observations from a re-analysis of the deposited data

Results flagged for a closer look

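Lamb3 in MEF-1 clonal line 4 stood at an rlog value of 5.80, with the next highest MEF-1 clonal line at 4.42, a gap of 0.591 of the whole range and above the Dixon limit for 7 samples. Of 18 sets of 7 clonal lines examined over the 9 chains it was the only one flagged, where chance would flag 0.9. Lama3 in the same line was 8.93.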

How the results depend on the processing

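The comparison of MEF-2 with MEF-1 clonal lines gave 7760 to 8678 called genes over all alternatives against 8573, with 44.6% to 53.1% of them higher in MEF-2, and the median of all genes moved by at most 0.04. The clone number as a replicate block gave 8226. Same-numbered lines correlated at over 0.1 in 2 of 7 pairs. Of the lines, 1 of 7 in MEF-1 and 4 of 7 in MEF-2 correlated best with their own number. The labels state no pairing by number, and these values do not settle it. The signs of the members between the sets did not change under any alternative except Lamb1, at -0.22 with chromosome medians taken away. Of the list genes named for size, all kept their calls under 22 alternatives, whereas Dtnb, B4gat1 and Ispd lost theirs with chromosome medians taken away, and Itgb1 lost its call in 13. Clonal against parental lines gave 31 genes, 48 after quantile normalisation, and 15 to 137 with single lines left out: 137 without MEF-2 clonal line 7, 89 without the MEF-1 parental line, 47 without MEF-2 clonal line 3, 18 without MEF-1 clonal line 3, and 15, 20, 17, 20 and 19 without MEF-2 clonal lines 1, 2, 4, 5 and 6. With single lines left out, members whose sign changed there were Lama3 (-0.35 without the MEF-1 parental line to 0.39 without the MEF-2 one), Lamb1 (-0.02 to 0.08) and Lamb2 (-0.56 to 0.19). The interaction gave 42 genes, 85 with no filter, and 32 to 55 with single lines left out. In it Lama4 ran from -0.29 to 0.02 and Lama5 from -0.01 to 0.15 with single lines left out. Of the 16 chain pairs 2 passed, 0 after quantile normalisation and 1 with chromosome medians taken away, and 0 to 2 with single lines left out (0 without MEF-2 clonal line 1, 2, 4, 5 or 7, with 6 lines left), while r stayed at -0.985 to -0.918 for Lama4 with Lamb1 and at 0.826 to 0.966 for Lama5 with Lamb1. All 72 pairs of the 9 members, an alternative chosen after seeing the data, gave 5 past the threshold, 0 after quantile normalisation and 1 with chromosome medians taken away. The causes of these shifts were not tested. Alternatives that need counts (DESeq2, a filter on low counts) were not run, and the unknown depth limits the low chains Lamb3 and, in MEF-1, Lama2.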
